A study of Mus musculus with 2 samples.

Results

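The 9 genes described here, Trem2, Tyrobp, Gpnmb, Lgals3, Itgax, Cd9, Spp1, Il7r and Adam8, belong to the programme of lipid-associated macrophages and were followed among the 27998 genes of the epididymal white adipose tissue (eWAT) stroma. They were chosen by name, with earlier results of these data in view, and all 9 were in the gene table. The data were droplet single-cell RNA sequencing (10x Chromium 3′) of the eWAT stromal vascular fraction (SVF), the cells left after the lipid-filled adipocytes are removed. There were 2 libraries from C57BL/6 mice (C57BL/6J in the study's methods), 1 from mice on a low-fat diet (LFD) and 1 from mice on a high-fat diet (HFD), each fed for 24 wk from 6 wk of age. The diets are those of the sample titles and treatment labels, and the free-text feeding protocol in the labels names a low-fat diet for both libraries. The number of mice behind a library is not given in the sources used here. With 1 library per diet there is no replicate check and no test. Every interval below is an exact 95% interval that covers counting error only, and what belongs to the diet cannot be told apart from what belongs to the library.

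Lipid-associated macrophages gather around dying adipocytes in obese fat and are known for taking up and breaking down lipid. TREM2 is a surface receptor for lipids and lipoproteins, and it signals through the adaptor TYROBP (DAP12). GPNMB is a lysosome-associated membrane glycoprotein, galectin-3 (Lgals3) a secreted lectin that binds sugars and damaged membranes, CD9 a tetraspanin, CD11c (Itgax) an integrin chain of dendritic cells and inflammatory macrophages, and osteopontin (Spp1) a secreted matrix protein that binds integrins and CD44. IL7R is best known as the interleukin-7 receptor of T cells, and ADAM8 is a membrane protease of leukocytes.

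The genes lie on 6 chromosomes (mm10, whole genes in GENCODE M21), and the assay counts the 3′ ends of their transcripts. Trem2 is at chr17:48346401-48354147, Tyrobp at chr7:30413760-30417585, Gpnmb at chr6:49036546-49070929, Lgals3 at chr14:47367751-47386160 and Itgax at chr7:128129547-128150657. Cd9 is at chr6:125460266-125494791, Spp1 at chr5:104435118-104441050, Il7r at chr15:9505788-9530176 and Adam8 at chr7:139978932-139992562. Cd9 and Adam8 each overlap unnamed genes on the opposite strand, and Gm42793 shares the strand of Spp1 and Mir7062 that of Adam8, so reads in the shared stretches are uncertain.

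Because these genes moved together in macrophages, the start of each was read from RefSeq (GRCm38.p6), which held a window for 8 of the 9, with 2 starts for Spp1. The windows ran from 250 bases before to 30 bases after the start, in the direction of transcription. Searched on both strands, the pattern TGANTCA was in 3 of the 9 windows, those of Gpnmb, Itgax and Trem2, and in 7.46% of all 32851 promoter windows. It is a loose form of the AP-1 motif, which has C or G at the N. The Gpnmb and Itgax matches have C and G there, and the Trem2 match, TGAATCA, has A. The share of all windows with the stricter form was not counted. The E-box CACGTG, to which the MiT factors bind, was in 0 of the 9 and in 6.79% of all windows. The PU.1 core GAGGAA was in 2 and the RUNX core ACCACA in 4 of the 9, against 26.0% and 15.6% of all windows. The 3 windows with TGANTCA (in capitals) and the upstream Spp1 start, which has none, are shown to let their sequence be read beside the counts. They are Gpnmb (chr6:49036268-49036547), Itgax (chr7:128129300-128129579), Trem2 (chr17:48346151-48346430) and Spp1 (chr5:104434861-104435140), all on the plus strand.
Gpnmb: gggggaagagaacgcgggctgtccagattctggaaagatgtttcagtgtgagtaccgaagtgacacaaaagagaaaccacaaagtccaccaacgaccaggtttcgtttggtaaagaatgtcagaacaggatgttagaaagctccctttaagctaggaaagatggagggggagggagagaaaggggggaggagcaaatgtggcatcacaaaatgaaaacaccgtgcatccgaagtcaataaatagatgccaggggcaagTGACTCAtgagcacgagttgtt
Itgax: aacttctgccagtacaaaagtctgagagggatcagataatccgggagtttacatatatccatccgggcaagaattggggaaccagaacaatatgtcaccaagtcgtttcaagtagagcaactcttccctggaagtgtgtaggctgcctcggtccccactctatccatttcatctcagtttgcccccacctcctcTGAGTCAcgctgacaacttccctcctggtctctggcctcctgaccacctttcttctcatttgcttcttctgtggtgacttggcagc
Trem2: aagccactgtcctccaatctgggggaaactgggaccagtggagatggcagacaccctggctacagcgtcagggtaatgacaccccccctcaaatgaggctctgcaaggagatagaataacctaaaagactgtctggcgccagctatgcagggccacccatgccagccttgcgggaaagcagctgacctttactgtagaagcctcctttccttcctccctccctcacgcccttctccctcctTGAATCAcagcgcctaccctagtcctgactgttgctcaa
Spp1: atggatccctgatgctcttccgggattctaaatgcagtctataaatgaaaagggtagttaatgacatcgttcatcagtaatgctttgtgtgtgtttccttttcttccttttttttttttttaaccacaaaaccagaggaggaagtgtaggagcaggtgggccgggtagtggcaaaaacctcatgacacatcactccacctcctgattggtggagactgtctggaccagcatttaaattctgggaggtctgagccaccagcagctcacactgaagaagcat
A match is a description of letters and was not tested as a binding site.

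Barcodes with at least 200 genes (1057 LFD, 1117 HFD) were sorted by fixed gates. Macrophages had at least 10 unique molecular identifiers (UMIs) of the complement genes C1qa, C1qb and C1qc, fibroblasts 10 of Dcn, endothelial cells 3 of Cdh5 and Cldn5, and dendritic cells 1 of Clec9a, Xcr1 or Cd209a. The macrophage gate held 238 LFD and 337 HFD barcodes, which is 22.5% and 30.2% of those sorted, with median depths of 6393 and 6997 UMIs. All 8 macrophage markers checked were present in it, at a summed 15781 and 13588 CPM, where CPM is the UMIs of a gene scaled to 1000000 UMIs of the class. Markers listed for other cells were also counted in it: 6 monocyte markers at 291 and 202 CPM, 6 dendritic cell markers at 194 and 69.7 CPM (3 and 2 of the 6 with a UMI) and 5 fibroblast markers at 687 and 722 CPM. Whether these came from other cells was not tested, and the monocyte markers were at 518 and 447 CPM in fibroblasts. Of its barcodes 121 LFD and 71 HFD also met the dendritic gate. The libraries shared 0 cell barcodes.

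In macrophages 8 of the 9 genes were at least 2-fold higher in the HFD library, and the same 8 were at least 10-fold higher. Of the 7561 genes with at least 50 UMIs over both libraries together, 4.77% were at least 2-fold and 0.582% at least 10-fold higher. Gpnmb, Itgax, Cd9, Spp1, Il7r and Adam8 had under 50 LFD UMIs and reached that minimum only with their HFD UMIs. With no minimum the number at least 2-fold higher was also 8. Since the genes were chosen for this contrast, their ratios are a description and nothing is read from that share or from the medians below. The median ratio over the 9 genes was 16.3, beside 0.983 over all genes tested. Tyrobp was the gene under the 2-fold line. Without the macrophages that also met the dendritic gate, the same number passed 2-fold, but Lgals3 (9.96) and Adam8 (7.54) were under 10-fold, Cd9 stood at 46.7 and Spp1 at 35.2. With the study's cell filter (200 to 2500 genes, under 5% mitochondrial UMIs), which left 49 and 75 macrophages, 3 of the 9 passed, Trem2, Lgals3 and Cd9, and 5 others had under 50 UMIs.

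**Figure D1:**
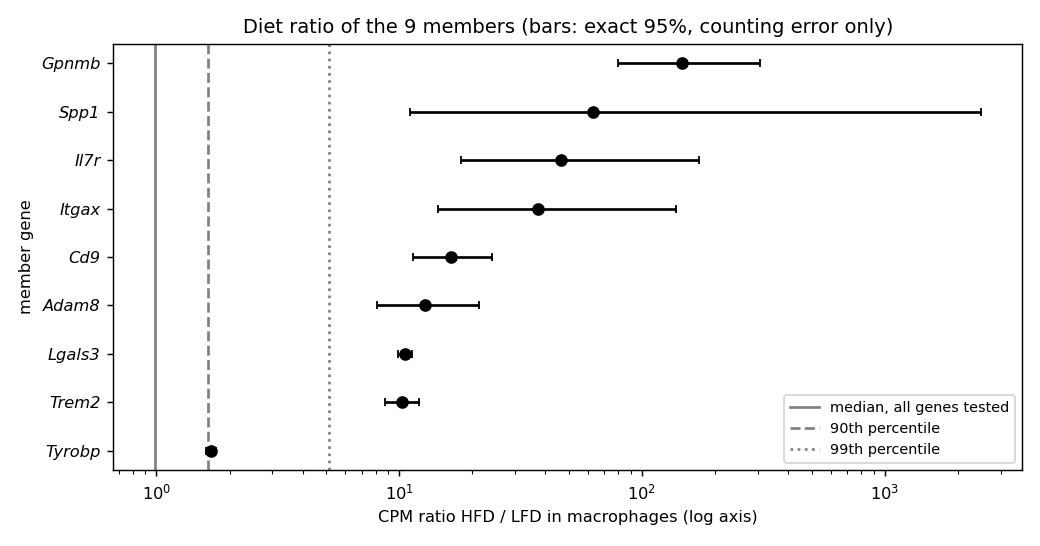
Each point is the CPM ratio of HFD over LFD macrophages on a log axis with its exact 95% interval, and grey lines mark the median, 90th and 99th percentile of all genes tested. All members but Tyrobp sit to the right of the 99th percentile (5.15), and the interval of Spp1 runs from 11.0 to 2496.

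The receptor and its adaptor differed in size of change. Trem2 gave 155 UMIs in LFD and 3135 in HFD macrophages, or 96.2 CPM (81.7 to 113) and 984 CPM (950 to 1019), a ratio of 10.2 (8.70 to 12.1). Tyrobp gave 2069 and 6848 UMIs, or 1284 and 2150 CPM, a ratio of 1.67 (1.59 to 1.76). Tyrobp was thus already in nearly every macrophage on LFD (228 of 238 barcodes), while Trem2 was in 82 of 238. On HFD, 257 of 337 macrophages held Trem2. After each barcode was thinned to 2000 UMIs, Trem2 was found in 38 of 224 LFD (17.0%) and 174 of 328 HFD macrophages (53.0%). In endothelial cells, which should lack it, it was found at the same depth in 0 of 132 on LFD, which allows a share of up to 2.27% by a floor of 3 counts (exact upper limit 2.76%), and in 4 of 172 on HFD (2.33%).

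Among the other surface and lysosomal proteins, Gpnmb had the highest ratio. It gave 10 UMIs in LFD and 2905 in HFD macrophages (6.21 and 912 CPM), a ratio of 147 (79.8 to 307). The 10 LFD UMIs came from 3 barcodes that held the fibroblast gene Dcn at 8864 CPM, against 147 CPM in the other 235. Without macrophages that also met the fibroblast or endothelial gate (8 LFD, 16 HFD), no LFD UMI of Gpnmb was left and the level was at least 476-fold higher on HFD, against a floor of 3 UMIs in the library.

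Cd9 had the same feature. Its UMIs numbered 31 in LFD and 1001 in HFD macrophages (19.2 and 314 CPM), a ratio of 16.3 (11.4 to 24.2). Without the mixed barcodes 5 LFD and 884 HFD UMIs remained, a ratio of 89.8. Itgax gave 4 and 296 UMIs (2.48 and 92.9 CPM), a ratio of 37.4 (14.5 to 138). Without the mixed barcodes it gave 2 and 283 UMIs (ratio 71.9). With the macrophage gate at 5 C1q UMIs it gave 8 and 302 (ratio 19.2).

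Lgals3, the galectin, was the most abundant change in UMIs: 841 in LFD and 17575 in HFD macrophages, or 522 and 5517 CPM, a ratio of 10.6 (9.86 to 11.3). At 2000 UMIs per barcode it was in 108 of 224 LFD (48.2%) and 277 of 328 HFD macrophages (84.5%). In the HFD library 34 macrophages, the top 10%, held 73.3% of its UMIs, and 1 barcode alone held 1206.

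Spp1, the secreted ligand, was rare on both diets. LFD macrophages gave 1 UMI and HFD macrophages 124, or 0.621 CPM (0.0157 to 3.46) and 38.9 CPM (32.4 to 46.4), a ratio of 62.7 (11.0 to 2496). It was found in 34 of 337 HFD macrophages, and 5 barcodes held 56.5% of its UMIs, the highest 36. Without the 5 barcodes of each library with most Spp1, 0 and 54 UMIs remained, which is at least 9.40-fold higher against the floor of 3 UMIs.

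The cytokine receptor Il7r gave 4 and 368 UMIs (2.48 and 116 CPM), a ratio of 46.5 (18.0 to 172), in 2 of 238 and 71 of 337 macrophages. The 3 T cell markers in the file summed to 4 LFD and 18 HFD UMIs over all macrophages, at 2.48 CPM (0.677 to 6.36) and 5.65 CPM (3.35 to 8.93), and their part in the result was not tested. The protease Adam8 gave 19 and 480 UMIs (11.8 and 151 CPM), a ratio of 12.8 (8.09 to 21.4), in 10 and 97 barcodes.

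Outside macrophages each gene had its own distribution, and the diet ratio seen in macrophages was not shared by every class. In dendritic cells (33 LFD, 54 HFD barcodes) Itgax was at 82.8 CPM (49.1 to 131) and 77.2 CPM (52.1 to 110), a ratio of 0.932 (0.503 to 1.78). Adam8 there was at 189 and 152 CPM (ratio 0.805, 0.531 to 1.23) and Il7r at 46.0 and 41.2 CPM (ratio 0.895, 0.382 to 2.21). These intervals all include 1 and are wide. Dendritic Lgals3 and Tyrobp were higher on HFD, with ratios of 1.56 (1.32 to 1.85) and 1.25 (1.08 to 1.46). On HFD the macrophage and dendritic levels had overlapping intervals for Itgax (82.6 to 104 and 52.1 to 110), Cd9 (295 to 334 and 256 to 369), Spp1 (32.4 to 46.4 and 17.8 to 57.2) and Adam8 (138 to 165 and 116 to 196). On LFD the dendritic level of Lgals3, Itgax, Cd9, Il7r and Adam8 stood above that of macrophages, with intervals that did not overlap. The dendritic gate needed 1 UMI, and 20 LFD and 47 HFD barcodes held at least 2 UMIs of the 6 dendritic cell markers (1067 and 759 CPM). In this gate 8 macrophage markers were at 612 and 280 CPM, 6 monocyte markers at 763 and 746 and 4 mural cell markers at 225 and 2.57. C1qa there had a ratio of 0.0559 (0.00634 to 0.230). Their part in the dendritic values was not tested.

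**Figure D2:**
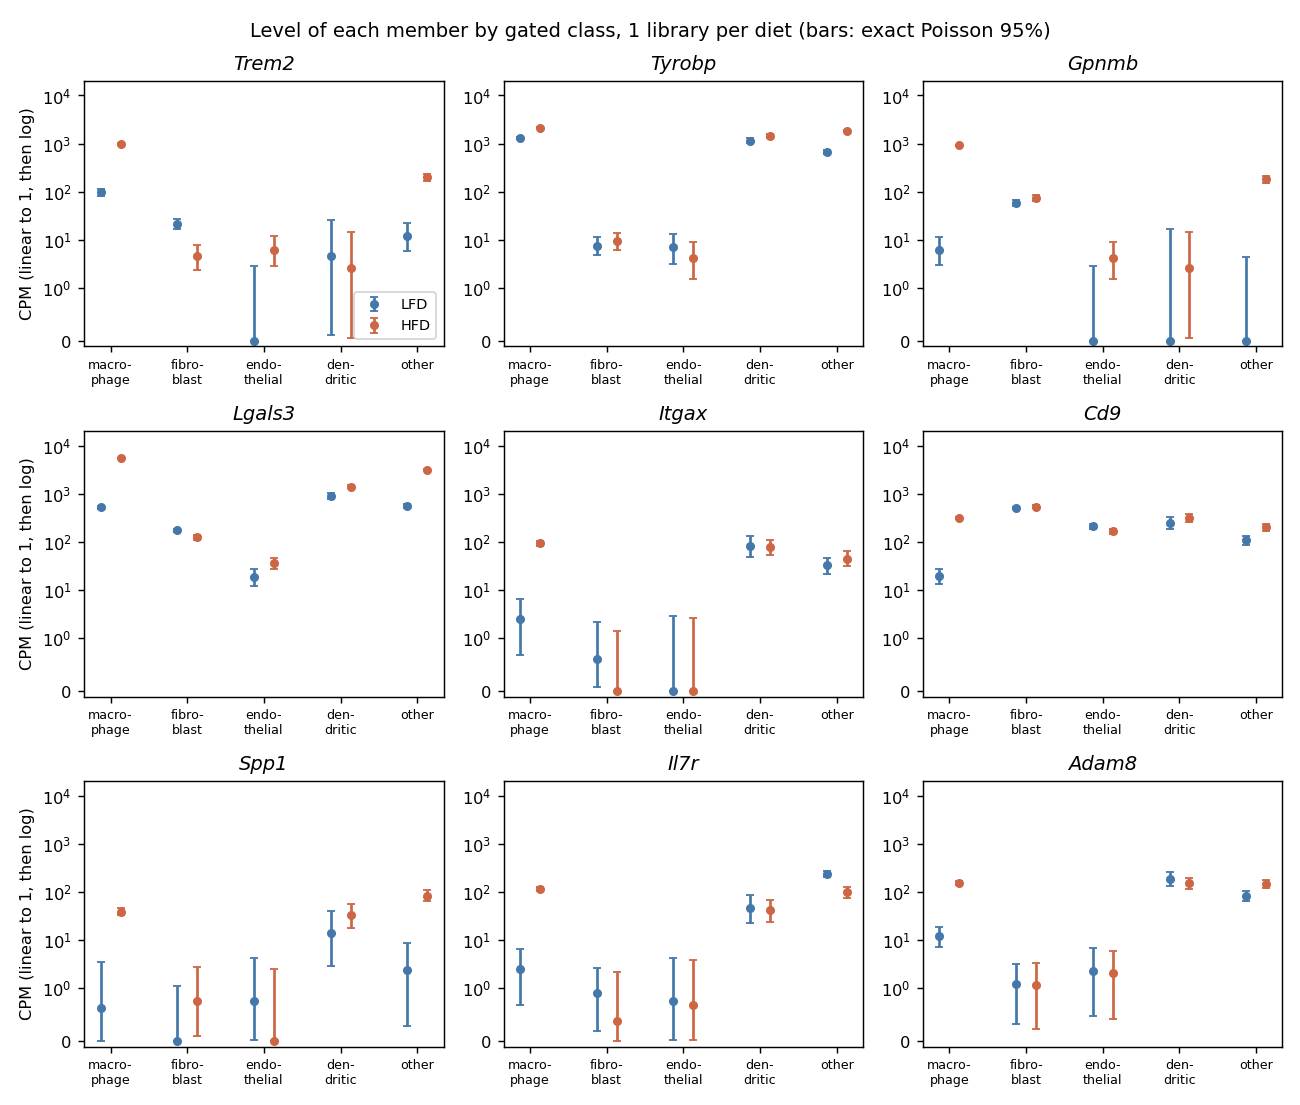
Points show CPM of each gene in the 5 gated classes for LFD (blue) and HFD (orange), with exact Poisson 95% intervals, on an axis that is linear up to 1 and logarithmic above. Macrophages show the wide gap between the diets for all genes but Tyrobp, while fibroblast Cd9 and dendritic Itgax and Adam8 lie close together on both diets.

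Cd9 was at its highest in fibroblasts on both diets, at 494 CPM (471 to 519) and 541 CPM (513 to 570), a ratio of 1.09 (1.02 to 1.18). Fibroblasts held 48.7% of all HFD Cd9 UMIs and macrophages 34.1%. Over all barcodes kept Cd9 gave a ratio of 1.22 (1.15 to 1.29), while in macrophages it was 16.3. Gpnmb was also a fibroblast transcript at a low level, in 127 of 383 LFD and 114 of 303 HFD barcodes, at 59.3 and 73.4 CPM (ratio 1.24, 1.01 to 1.52). On LFD, fibroblasts held most Gpnmb, 196 of 206 UMIs. On HFD, 89.8% of its UMIs were in macrophages.

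Trem2 was also counted outside myeloid cells. In endothelial cells it gave 0 LFD and 9 HFD UMIs, in 9 of 207 HFD barcodes (6.18 CPM). In the fibroblast gate it gave 70 LFD and 12 HFD UMIs (21.2 and 4.54 CPM), a ratio of 0.214 (0.106 to 0.399), opposite to macrophages. When that gate was split, after the values were seen, by at least 3 UMIs of the mesothelial genes Msln, Upk3b and Lrrn4, the mesothelial-marked barcodes (29 LFD, 14 HFD) held 69 of the 70 and 10 of the 12 UMIs. Their Trem2 level was 190 CPM and 64.3 CPM, a ratio of 0.338 (0.155 to 0.660), in 16 of 29 and 5 of 14 barcodes. The same barcodes held 0 Tyrobp UMIs on both diets, and 1 and 0 UMIs of C1qa. They also carried Lgals3 at 786 and 643 CPM, against 95.8 and 91.7 CPM in the rest of the gate. Within the mesothelial-marked barcodes the Lgals3 ratio was 0.819 (0.645 to 1.03) and in the rest 0.957 (0.800 to 1.14). Over the whole gate the Lgals3 ratio was 0.724 (0.630 to 0.831), and mesothelial-marked barcodes were 7.57% of the gate on LFD and 4.62% on HFD.

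In the barcodes outside all gates (254 LFD, 216 HFD), which hold the lymphocytes, several of the genes were higher on HFD, beside a median ratio of 1.01 and a 90th percentile of 1.66 over the 4253 genes with at least 50 UMIs there. The markers in this group moved too: 8 macrophage markers were at 459 and 1302 CPM, 3 T cell markers at 593 and 208 CPM, 4 NK cell markers at 760 and 516 CPM, 4 ILC2 markers at 680 and 224 CPM and 4 B cell markers at 449 and 145 CPM. Their part in the results was not tested. Trem2 had a ratio of 16.6 (8.79 to 35.5), Spp1 35.2 (9.32 to 297), Lgals3 5.84 (5.28 to 6.47) and Tyrobp 2.78 (2.52 to 3.08). Gpnmb gave 0 and 128 UMIs, and 1 barcode held 51 of these, as another held 51 of the 142 HFD Trem2 UMIs. Cd9 had a ratio of 1.88 and Adam8 1.78, and the interval of Itgax included 1 (1.39, 0.806 to 2.41).

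Il7r ran the other way there. It gave 196 LFD and 70 HFD UMIs (234 and 97.9 CPM), a ratio of 0.419 (0.314 to 0.553). In the barcodes with at least 2 T cell UMIs its level was 446 CPM (372 to 531) in 70 LFD and 447 CPM (277 to 684) in 21 HFD barcodes. In those with under 2 T cell UMIs and no C1q UMI (152 LFD, 141 HFD) it gave 67 and 21 UMIs, at 144 CPM (112 to 183) and 47.5 CPM (29.4 to 72.6), a ratio of 0.329 (0.191 to 0.543). In those with 1 to 9 C1q UMIs it gave 1 and 28 UMIs. The level was thus close on both diets in the T cell barcodes, lower on HFD in those without C1q and higher in those with some. The NK cell, ILC2 and B cell markers given above were also lower on HFD over the barcodes outside all gates. On HFD, 80.7% of Il7r UMIs were in macrophages.

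Spp1 was the gene with the largest share of HFD UMIs outside all gates. Of 199 UMIs in the barcodes kept, 124 were in macrophages (62.3%, 55.2 to 69.1), 60 in barcodes outside all gates (30.2%, 23.9 to 37.0), 13 in dendritic cells and 2 in fibroblasts. With the study's cell filter 12 of 38 HFD UMIs (31.6%) were in macrophages. The highest Spp1 barcode after the leading macrophage had 17 Spp1 UMIs of 17587 in all, with 0 C1q, Trem2, Tyrobp and Gpnmb UMIs. The next outside the macrophage gate had 11 Spp1 UMIs with 9 of C1q, 1 below the gate, and 23 of Trem2, 51 of Gpnmb and 340 of Lgals3. Monocyte markers were at 985 and 1526 CPM over the LFD and HFD barcodes outside all gates, and their part in the result was not tested.

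A few member-rich cells lay on each side of the gate. In the HFD library the 17 barcodes with 5 to 9 C1q UMIs held Trem2 at 462 CPM, Gpnmb at 911 CPM and Lgals3 at 8403 CPM. The barcode with 9 C1q UMIs described above held most of these, and 11 of the 12 Spp1 UMIs. Without it the other 16 held Trem2 at 208 CPM, Gpnmb at 327 CPM and Lgals3 at 4947 CPM, and Gpnmb was found in 2 of them. The 9 barcodes with 10 to 14 C1q UMIs held the 3 genes at 296, 997 and 3126 CPM, with Gpnmb in 2 barcodes and no Spp1 UMI.

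Within HFD macrophages most pairs of the genes were found together more often than the product of their shares. At 2000 UMIs per barcode, 57 of 328 HFD macrophages (17.4%, 13.4 to 21.9) held 5 or more of the 9 genes, and 0 of 224 LFD macrophages did, which allows a share of up to 1.34% by a floor of 3 counts (exact upper limit 1.63%). The product of the genes' own detection shares gives 7.25% on HFD and 0.00163% on LFD, so the LFD count of 0 says nothing on whether the genes shared cells there. The median number was 3 on HFD and 2 on LFD, and the highest 8 and 4. With the study's cell filter the HFD share was 6.94% (5 of 72), and without mixed barcodes or those marked as doublets it was 16.7%.

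**Figure D3:**
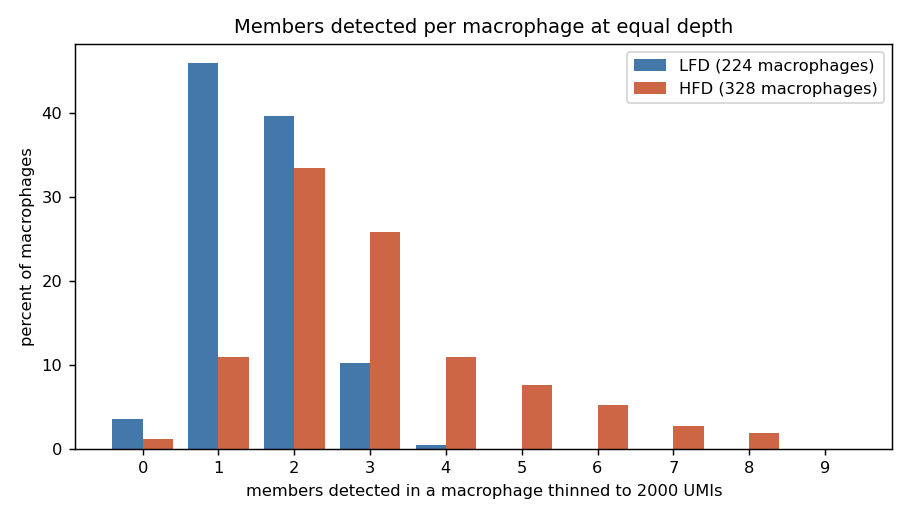
Bars give the percent of macrophages in which 0 to 9 of the genes were detected after thinning to 2000 UMIs, for 224 LFD and 328 HFD macrophages. The HFD bars run on to 8 genes, and the LFD bars end at 4.

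For the 36 gene pairs, the odds ratio of detection in the same HFD macrophage was above 1 in 35 and at least 2 in 32, with a median of 6.29. In 9 pairs a count was 0, and 8 of these passed 2 with the 0.5 added, such as Tyrobp with Itgax (2.33, 17 cells with both). Over all pairs of any of the 9 members with another gene found in 10 to 90% of these cells, 10.3% had an odds ratio of at least 2. The other genes included members. Of the 15 pairs among the 6 members in that range, all 15 did, from 2.85 upward. The sets of pairs differ, and the members were chosen with these data in view, so nothing is read from the contrast. On LFD 27 of the 36 pairs were never found together, so the LFD odds ratios are not read. Gpnmb was nearly nested in Trem2: 49 of the 51 Gpnmb macrophages also held Trem2, while 125 macrophages held Trem2 without Gpnmb (odds ratio 24.1). All 51 held Lgals3. Of the 33 Il7r macrophages, 30 held Trem2, 25 held Cd9 and 33 held Lgals3. Tyrobp, present in 309 of 328, could add little.

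**Figure D4:**
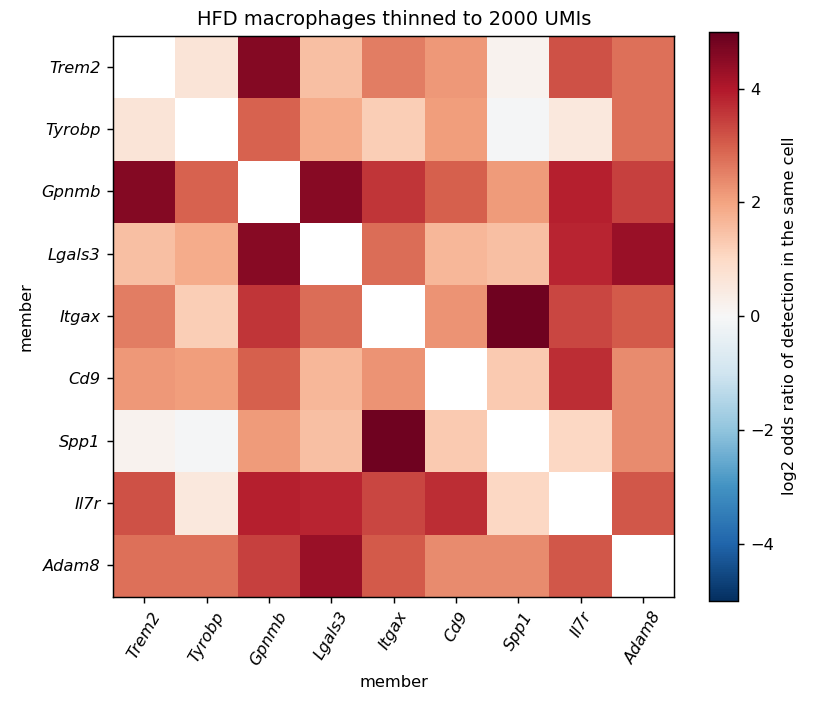
Colour gives the log2 odds ratio of detection of each pair in the same HFD macrophage at 2000 UMIs (328 cells). Most pairs are red (above 0), with Trem2 and Gpnmb at an odds ratio of 24.1, and the pale Spp1 cells with Trem2 and Tyrobp rest on 7 cells with Spp1.

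Spp1 was detected in 7 of these thinned macrophages, and its odds ratios turn on few cells. With Trem2 it was 1.14, with 4 of 7 holding both, and a second random draw gave 9 of 9 and 17.5. With Itgax it was 29.4 (4 of 7), the highest of the 36 pairs, and 17.2 in the second draw (4 of 9). With Gpnmb it was 4.39 and 6.84. Without thinning, where depth differs, 34 macrophages held Spp1, at a median of 16899 UMIs, against 6860 for the 303 without. Pooled over barcodes, those with Spp1 held Trem2 at 1792 CPM against 738 CPM, Gpnmb at 2533 against 418, Itgax at 249 against 45.5, Cd9 at 671 against 206 and Il7r at 245 against 76.2. C1qa was lower in them, at 1491 against 4388 CPM.

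By the phi coefficient of detection over the 328 HFD macrophages, the 5 genes outside the list most like Trem2 among 2526 were Atp6v0d2 (0.371), a subunit of the lysosomal proton pump, Ahnak2 (0.304), the fatty acid binding protein gene Fabp5 (0.285), the macrophage elastase gene Mmp12 (0.269) and Myo1e (0.239). For Spp1 they were Ano6 (0.231), Batf3 (0.216), Mrpl17 (0.193), Hilpda (0.191) and Tcirg1 (0.186), which at 7 Spp1 cells is a weak likeness. All detection values share library and thinned depth.

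Macrophages on HFD also differed by whether they held Lyve1, a gene of resident macrophages, in a split chosen after the values were seen. Barcodes with a Lyve1 UMI made up 174 of 238 LFD and 112 of 337 HFD macrophages. In them Trem2 was still higher on HFD, at 101 and 330 CPM (ratio 3.27, 2.63 to 4.10), and so was Lgals3, at 352 and 779 CPM (ratio 2.21, 1.95 to 2.51). Tyrobp was at 1230 and 1419 CPM (ratio 1.15, 1.07 to 1.25). The intervals included 1 for Gpnmb, at 8.40 and 7.41 CPM (ratio 0.883, 0.264 to 2.68), and for Cd9, at 22.7 and 24.7 CPM (ratio 1.09, 0.580 to 2.02). Mixed barcodes were part of this group, with Dcn at 613 CPM on LFD and 110 CPM on HFD. Without macrophages that also met the fibroblast or endothelial gate (167 LFD and 110 HFD left), Gpnmb gave 0 and 5 UMIs and Cd9 2 and 10 UMIs (ratio 6.83, 1.46 to 64.1), while Trem2 had a ratio of 3.16 and Lgals3 2.27. In the whole group Itgax gave 2 and 0 UMIs, Spp1 1 and 0, Il7r 0 and 0 and Adam8 1 and 3. In macrophages without Lyve1 (64 LFD, 225 HFD) Trem2 was at 83.3 and 1207 CPM (ratio 14.5, 10.4 to 20.8), and all HFD UMIs of Itgax, Spp1 and Il7r in macrophages were in this group.

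**Figure D5:**
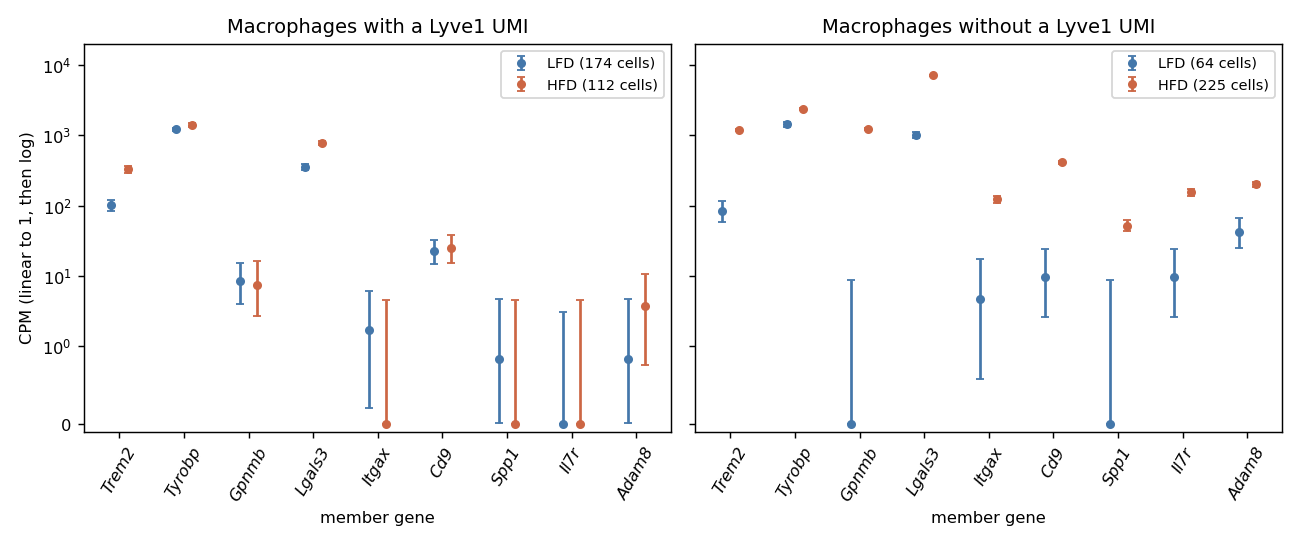
CPM of each gene in macrophages with (left) and without (right) a Lyve1 UMI, LFD in blue and HFD in orange, with exact Poisson 95% intervals and an axis linear up to 1 and logarithmic above. On the left the intervals of the diets are apart for Trem2, Tyrobp and Lgals3 and overlap for the other genes, with mixed barcodes kept, and on the right they are apart for all 9 genes.

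A like gradation was seen with Gpnmb. HFD macrophages without a Gpnmb UMI (259 barcodes) held Trem2 at 418 CPM, which is 4.25 (3.57 to 5.09) times the LFD level of barcodes without Gpnmb, and Lgals3 at 1891 CPM, 3.60 (3.33 to 3.89) times. HFD macrophages with Gpnmb (78 barcodes) held Trem2 at 1748 CPM and Lgals3 at 10409 CPM. The median depth was 6525 UMIs without and 11588.5 UMIs with Gpnmb.

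The partner genes of these 9 moved unequally in macrophages. Their lists, here and below, were chosen with earlier results of these data known. The counts are a description, and nothing is read from the shares of all genes beside them. Of 20 other genes of the lipid-associated programme 13 were at least 2-fold higher on HFD, where 4.77% of all genes tested were, and 0 lower, with a median ratio of 2.84 (all genes tested 0.983). Mmp12 went from 1 to 2362 UMIs, Atp6v0d2 from 9 to 927 (ratio 52.1), Fabp5 from 74 to 3474 (ratio 23.7) and the cathepsin gene Ctsl from 708 to 5966 (ratio 4.26). Of 12 resident macrophage genes all 12 were at least 2-fold lower, where 5.61% of all genes tested were, with a median ratio of 0.360. Timd4, a receptor for dying cells, had a ratio of 0.151, the chemokine gene Ccl24 0.167, Cd163 0.252 and Fcna 0.300.

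The signalling partners of TREM2 did not follow it past 2-fold. Of the 7 tested, 0 passed in either direction (median ratio 0.947), with the exchange factor gene Vav3 at 1.51, the kinase gene Syk at 0.947 (0.819 to 1.10), Plcg2 at 0.792 (0.578 to 1.09) and Apoe, a ligand, at 1.01 (0.993 to 1.03). Among 8 osteopontin receptors and proteases tested, the integrin genes Itgb5 (3.94, 2.75 to 5.81) and Itgav (3.21, 2.06 to 5.22) and the receptor gene Cd44 (2.34, 2.02 to 2.71) were at least 2-fold higher, and the protease gene Mmp9 was lower (0.0838, 0.0622 to 0.111), beside 4.77% of all genes tested higher and 5.61% lower. Of 6 genes of the IL7 receptor pathway 0 were higher and 2 lower (5.61% of all genes tested), the cytokine gene Tslp (0.330) and Stat5b (0.490), and the shared chain Il2rg was at 0.838 (0.552 to 1.29). No tested gene of 2 beta2 integrins, 7 tetraspanins and partners, 4 galectin genes, 4 MiT factors or 4 other ADAM proteases passed 2-fold either way. Itgb2, the partner chain of CD11c, was at 1.67 (1.44 to 1.93).

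The 57 HFD macrophages with 5 or more of the genes, set beside the 271 with fewer, differed in the lipid-associated and resident lists in the same directions as HFD from LFD. The lists and the 9 genes were chosen with these data in view, so the like directions are a description only. Depth also differed, with medians of 12182 and 6714 UMIs, and its part was not tested. Of 19 other genes of the lipid-associated programme tested 13 were at least 2-fold higher and 0 lower, where 5.08% of the 6265 genes tested were higher. All 12 resident genes were at least 2-fold lower, where 8.41% were. Lyve1 gave 0 UMIs in the 57 and 887 in the 271, Timd4 0 and 53, and Cd163 16 and 544. Mmp12 was at 2011 and 67.2 CPM (ratio 29.9, 25.2 to 35.8) and Fabp5 at 2311 and 444 CPM (ratio 5.21, 4.83 to 5.62). C1qa itself was lower, at 1653 and 4807 CPM (ratio 0.344, 0.327 to 0.362). In the other lists the counts were as follows. Of 8 osteopontin receptors and proteases 2 were at least 2-fold higher, Itgb5 (2.49, 1.93 to 3.21) and Itga5 (2.10, 1.45 to 3.04), and 3 lower, Mmp9 on 2 and 54 UMIs, Itga9 on 6 and 59 and Itga4 (0.496, 0.358 to 0.677). Of 4 MiT factor genes Tfeb was higher on 49 and 30 UMIs (3.06, 1.90 to 4.99) and Tfec lower on 9 and 41 (0.411, 0.175 to 0.858). Itgb2 was higher (2.48, 2.15 to 2.85), and the tetraspanin gene Cd81 (0.252, 0.214 to 0.296) and the protease gene Adam9 (0.471, 0.314 to 0.691) were lower. Of 4 IL7 pathway genes tested, 7 TREM2 partners and 4 galectin genes 0 passed either way.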

How the data were processed

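The sources were 2 droplet single-cell libraries (10x Chromium 3′ v3) of eWAT SVF. The matrices were deposited as raw UMI counts, which the authors obtained from Cell Ranger (3.0.2 in the file header) with the mm10 build. No deposited annotation of cells was used. The 9 genes, partner lists and gates were chosen with earlier results of these data known, and the splits by Lyve1, Gpnmb, Spp1 and mesothelial genes and the barcode left out below the macrophage gate after their values were seen.

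Totals were 7356278 UMIs in 1113 LFD barcodes and 8412325 in 1144 HFD barcodes, and 56 and 27 barcodes under 200 genes were left out. A barcode that met several gates went to the first of macrophage, fibroblast, endothelial and dendritic. CPM is pooled UMIs over pooled total UMIs, with exact Poisson intervals. Ratios have exact conditional binomial and shares Clopper-Pearson intervals. A gene at 0 in a library was set to a floor of 3 UMIs for ratios over all genes. A ratio at this floor depends on that setting and is not a 95% limit. Co-detection used cells thinned at random to 2000 UMIs (14 LFD and 9 HFD macrophages were shallower and left out), and 0.5 was added to each cell of an odds ratio. Doublets were kept, and 2 alternatives left them out (mixed gates, and Scrublet in scanpy 1.11.5 at an expected 1%, which marked 21 LFD and 26 HFD barcodes). The study's own filter leaves 294 and 352 barcodes, 49 and 75 of them macrophages, and was an alternative. The intervals were run on simulated Poisson counts of the 7561 genes in the macrophage comparison, where 95.5% held the true ratio. Such counts follow the model that the intervals assume and hold no spread between cells. The check covers the arithmetic only and says nothing on UMIs gathered in few barcodes. Genes named were the 9 members, the gate genes, the 5 genes most like Trem2 and Spp1, and up to 4 genes of each list with the largest ratios; others were chosen after their values were seen. The software was Python 3.11.15, numpy 2.4.6, pandas 2.3.3 and scipy 1.17.1.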

Additional observations from a re-analysis of the deposited data

Results flagged for a closer look

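In 4 places a gene that was higher on HFD in macrophages was lower on HFD in another class, with an interval below 1. The difference between the classes was not tested, since each diet had 1 library. Trem2 had a ratio of 0.214 in the fibroblast gate, on 70 and 12 UMIs that lay nearly all in mesothelial-marked barcodes. Lgals3 had a ratio of 0.724 in the fibroblast gate, and its ratios within the mesothelial-marked barcodes (0.819) and the rest (0.957) had intervals that included 1. Cd9 had a ratio of 0.775 (0.649 to 0.924) in endothelial cells, with 212.6 CPM in LFD and 165 CPM in HFD. In that gate 5 endothelial markers were at 10050 and 10120 CPM, 4 adipocyte markers at 237 and 119 CPM and 5 fibroblast markers at 283 and 540 CPM. Their part in the result was not tested. Il7r had a ratio of 0.419 in the barcodes outside all gates.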

How the results depend on the processing

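No paired analysis was possible because each diet had 1 library, and for the same reason no replicate could be left out. None of the diet ratios of the 8 genes above 2-fold fell below 1 under any alternative. By the rule used, Tyrobp, the shares, the number of genes and the odds ratio of Spp1 and Trem2 could not be marked as reversed. The study's filter on genes and mitochondrial UMIs, which left 49 LFD and 75 HFD macrophages, moved most results. Spp1 went to a ratio of 2.52, with 0 LFD UMIs set to the floor of 3, and Trem2 to 8.41. The number of genes at least 2-fold higher went from 8 to 3 (fewer UMIs were left for the 50 UMI minimum). The share of HFD macrophages with 5 or more genes went to 6.94% and the share of HFD Spp1 UMIs in macrophages to 31.6%. The mean of single-cell CPM gave 7.50 for Trem2, and leaving out macrophages with dendritic cell genes (an alternative chosen after seeing the data) 12.2. Leaving out the 5 barcodes with most Spp1 gave 9.40 for Spp1, also at the floor of 3 UMIs. The HFD share with 5 or more genes was 9.82% at 1000 UMIs, 26.1% at 4000 UMIs and 30.0% without thinning. The LFD share was 0 in each of these but the last, where 3 of 238 macrophages (1.26%, 0.261 to 3.64) held 5 or more. Another random draw gave an odds ratio of 17.5 for Spp1 and Trem2, from 9 Spp1 cells. Over 10 alternatives each, the ratio ran from 1.33 to 1.72 for Tyrobp, 6.92 to 476 for Gpnmb, 5.21 to 10.8 for Lgals3, 1.47 to 71.9 for Itgax, 14.6 to 105 for Cd9, 3.99 to 88.7 for Il7r and 2.97 to 35.0 for Adam8. The lowest for Gpnmb, Itgax and Il7r were bounds against 0 LFD UMIs under the study's filter. In all, 108 of 137 alternative values stayed within the interval of the reported ratio, odds ratio or share or, for the number of genes at least 2-fold higher, within 1.5 times. Some of these intervals are wide, such as 11.0 to 2496 for the ratio of Spp1, and the odds ratio rested on 7 Spp1 cells. Most alternatives also share their cells, so the number says little on stability.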
